A study of Mus musculus with 36 samples.

Results

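A total of 2037 of 96287 autosomal DNase I hypersensitive sites (DHSs) of mouse liver were stronger in B6C3F1 mice than in C57BL/6 mice. A DHS was selected on the DNase-seq values themselves. It was kept when the normalized count of each of the 9 B6C3F1 mice lay above that of each of the 9 C57BL/6 mice and when the ratio of the strain means was at least 1.6. Of the autosomal DHSs, 3612 (3.75%) met the first criterion and 2037 (2.12%) met both, so the strain difference of these regions is a description and was not tested. The mirror rule, with C57BL/6 above B6C3F1, held for 2581 DHSs. The whole table lists 98170 DHSs.

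Livers came from 18 male mice, 4 that drank vehicle and 5 that drank phenobarbital (PB, 0.05% wt/vol) of each strain for 91 days, and the same animals gave RNA-seq of total liver. The C57BL/6 mice were inbred and 9 to 11 weeks old at the start, and the B6C3F1 mice, the first-generation cross of C57BL/6 females and C3H/He males, were 4 to 5 weeks old. C57BL/6 mice were bought from Taconic and B6C3F1 mice from Charles River for separate in-life studies, and strain, age, breeder and study cannot be told apart. Reads counted in DHSs, in units of 1e6, numbered 19.4 to 58.1 per C57BL/6 mouse and 7.01 to 25.7 per B6C3F1 mouse.

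A DHS is a short stretch of chromatin that DNase I cuts readily because nucleosomes are displaced there, as at active promoters, enhancers and insulators. In an F1 hybrid each autosome is present as 1 copy from either parent, so a regulatory element can be open on both copies or on a single one, and bulk values add the copies. Liver regulatory elements are bound by hepatocyte factors such as HNF4, FOXA, C/EBP and nuclear receptors, and PB acts on hepatocytes through the nuclear receptor CAR. CTCF, by contrast, binds insulators and loop anchors in nearly all tissues.

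The sequences below, chosen after their values were seen, are from 6 regions with a high strain ratio that are described further on and from a strong member outside promoters and repeats with the letters of the CTCF motif. They were read from RefSeq GRCm38, which has the coordinates of mm10 and is the C57BL/6J sequence. At most 300 bases around the centre are shown. Capitals mark matches to the letters of the 10 motifs that were searched, and a region without capitals holds none of them in the bases printed. The Cyp2a22 line gives only the bases upstream of the transcription start, in the direction of transcription.

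chr10 DHS, chr10:11492027-11492268, forward strand: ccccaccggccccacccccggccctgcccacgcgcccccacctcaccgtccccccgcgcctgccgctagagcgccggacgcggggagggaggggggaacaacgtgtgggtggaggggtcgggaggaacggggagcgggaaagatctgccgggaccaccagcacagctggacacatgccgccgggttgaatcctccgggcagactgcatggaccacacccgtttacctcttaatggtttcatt

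Cyp2a22 upstream bases, chr7:26939387-26939609, reverse strand: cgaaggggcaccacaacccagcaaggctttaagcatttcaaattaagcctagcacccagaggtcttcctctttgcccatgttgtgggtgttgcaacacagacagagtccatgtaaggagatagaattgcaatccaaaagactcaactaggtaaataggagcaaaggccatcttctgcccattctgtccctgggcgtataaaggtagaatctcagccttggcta

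chr12 DHS near Rps29, chr12:69147202-69147501, forward strand: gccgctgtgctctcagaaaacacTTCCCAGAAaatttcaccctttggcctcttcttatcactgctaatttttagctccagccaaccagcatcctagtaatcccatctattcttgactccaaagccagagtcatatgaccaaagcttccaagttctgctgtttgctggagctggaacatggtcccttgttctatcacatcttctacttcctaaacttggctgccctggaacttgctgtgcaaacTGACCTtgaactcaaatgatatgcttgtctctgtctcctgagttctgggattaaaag

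chr17 DHS near Gm41611, chr17:70963653-70963898, forward strand: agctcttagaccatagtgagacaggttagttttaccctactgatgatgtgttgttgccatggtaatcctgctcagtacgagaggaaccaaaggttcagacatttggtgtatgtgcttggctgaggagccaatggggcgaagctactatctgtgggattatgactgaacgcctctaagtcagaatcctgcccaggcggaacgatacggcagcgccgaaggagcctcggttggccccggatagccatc

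chr6 DHS, chr6:111489128-111489427, forward strand: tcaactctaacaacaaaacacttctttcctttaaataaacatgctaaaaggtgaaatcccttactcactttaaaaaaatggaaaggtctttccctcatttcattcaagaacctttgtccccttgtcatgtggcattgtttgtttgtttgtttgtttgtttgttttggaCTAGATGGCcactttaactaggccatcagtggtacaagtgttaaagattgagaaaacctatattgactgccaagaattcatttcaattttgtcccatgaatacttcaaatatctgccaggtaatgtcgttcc

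Cyp46a1 intron DHS, chr12:108340269-108340568, forward strand: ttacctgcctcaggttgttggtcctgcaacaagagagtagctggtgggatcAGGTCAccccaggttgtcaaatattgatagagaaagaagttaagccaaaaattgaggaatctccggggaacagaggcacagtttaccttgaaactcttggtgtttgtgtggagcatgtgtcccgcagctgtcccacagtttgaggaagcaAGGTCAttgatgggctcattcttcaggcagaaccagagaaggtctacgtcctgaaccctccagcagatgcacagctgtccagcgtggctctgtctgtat

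Alad intron DHS, chr4:62518742-62519039, forward strand: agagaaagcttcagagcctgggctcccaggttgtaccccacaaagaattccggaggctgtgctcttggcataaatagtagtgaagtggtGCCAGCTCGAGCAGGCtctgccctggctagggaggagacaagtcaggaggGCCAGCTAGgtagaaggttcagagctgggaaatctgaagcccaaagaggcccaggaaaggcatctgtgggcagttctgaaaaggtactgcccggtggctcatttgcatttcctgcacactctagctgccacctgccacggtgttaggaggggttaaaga

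The median ratio of the members was 1.95 and the 25th and 75th percentiles were 1.73 and 2.75. A ratio of at least 2 was reached by 941 members, of at least 3 by 458, of at least 5 by 288 and of at least 10 by 128. The median level of the members was 149 normalized counts in B6C3F1 and 67.6 in C57BL/6, against 116 and 114 for all autosomal DHSs. The members thus stood above the typical DHS in one strain and below it in the other. The median of all autosomal DHSs lay between 111 and 118 in every mouse.

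The spread of the members within a strain is limited by the rule, which favours DHSs with little spread there. The median member level ranged from 59.8 to 71.3 in the 4 vehicle-treated and from 58.6 to 78.6 in the 5 PB-treated C57BL/6 mice. It ranged from 147 to 159 in the 4 vehicle-treated and from 135 to 152 in the 5 PB-treated B6C3F1 mice.

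**Figure D1:**
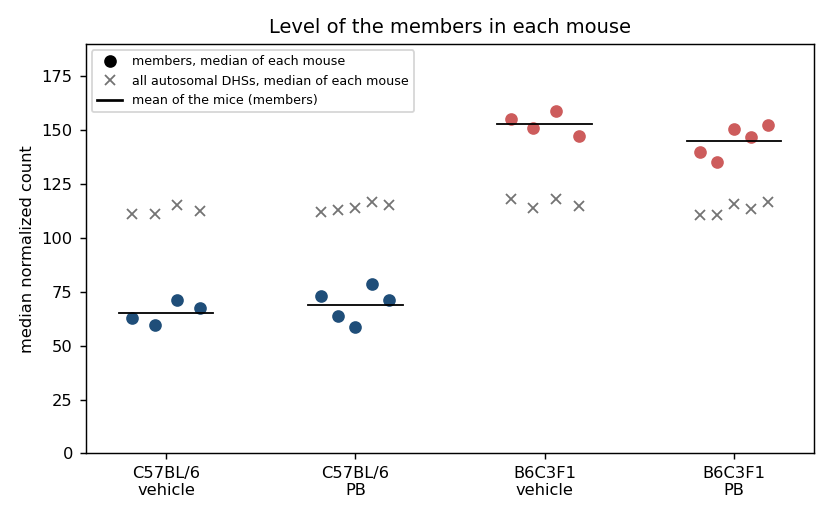
Median normalized count of the 2037 members (filled circles, 1 per mouse) and of all autosomal DHSs (crosses) in each mouse, by strain and treatment, with the mean of the mice as a line. The members lie between 58.6 and 78.6 in C57BL/6 mice and between 135 and 159 in B6C3F1 mice, as the selection requires, while the crosses of all mice lie between 111 and 118.

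**Figure D2:**
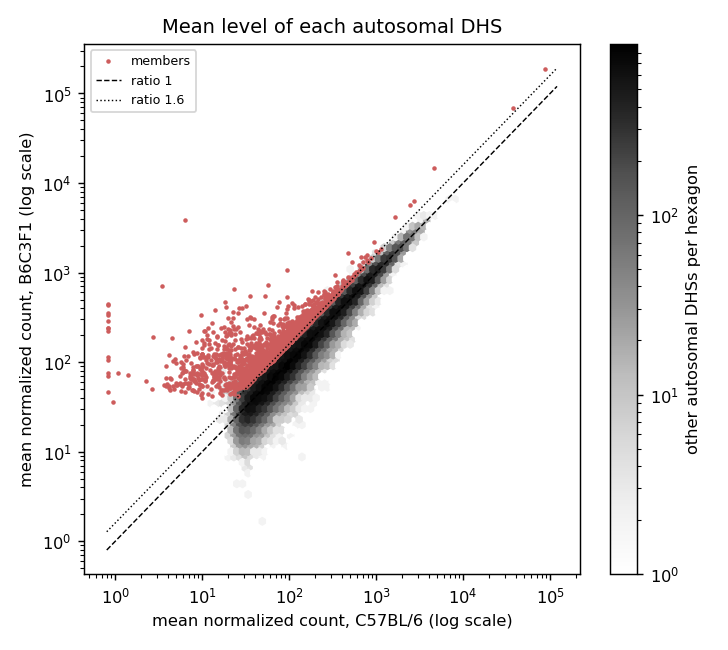
Mean normalized count of each autosomal DHS in C57BL/6 mice (x axis, log scale) and B6C3F1 mice (y axis, log scale), with the members as points and the other DHSs as shaded hexagons. The members form a band above the line of ratio 1.6, a cloud of higher ratios at low C57BL/6 levels and a column of 13 DHSs at the lowest C57BL/6 value.

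The member closest to the ratio threshold, an intergenic DHS at chr13:39441538-39442172, had 837 ± 121 normalized counts in B6C3F1 and 523 ± 71.5 in C57BL/6 (mean ± SD, n = 9 mice each). The closest DHS under the threshold, at an intergenic site at chr10:96934649-96935006, had 132 ± 13.6 and 82.3 ± 15.3. A further 1575 DHSs that did not overlap between the strains stayed under the ratio, and 3363 DHSs past the ratio overlapped.

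Among members with a C57BL/6 mean of at least 10 normalized counts, the highest ratio was 28.3, at chr12:69147073-69147629, 11835 bp from the start of the ribosomal protein gene Rps29. Its lowest, median and highest values were 459, 663 and 830 normalized counts in B6C3F1 and 6.11, 23.6 and 35.7 in C57BL/6. It was followed by chr17:70963653-70963898 with 264, 310 and 600 against 9.76, 12.5 and 27.2, which matched 2 places in GRCm38 at 90% identity or more over 80% of its length. In both DHSs the strains were far from overlapping.

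The other members of this group of 12 had ratios between 15.9 and 25.3. An intronic DHS at chr6:111488973-111489581 had 366 to 590 normalized counts in B6C3F1 mice against 6.48 to 29.5. An intronic DHS of Cyp46a1, at chr12:108340169-108340667, had 251 to 479 against 9.20 to 34.0. Of the 12 members, 3 lay mostly in repeats: chr12:69147073-69147629 over 65.7% of its bases, chr15:77544152-77544497 over 84.4% and chr19:38375097-38375225 over 100%. The last of these matched 105 places in GRCm38, and 10 of the 12 matched 1 place only.

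Among members that were not at 1 read in every C57BL/6 mouse (13 that were are described below), the highest ratio, chosen after its values were seen, belonged to chr10:11492027-11492268, an intergenic DHS 148702 bp from the start of Epm2a. It had 2819, 3840 and 6683 normalized counts as the lowest, median and highest B6C3F1 value and 1.06, 4.87 and 15.7 in C57BL/6. Its 242 bases had a GC content of 69.4% and 21 CpG dinucleotides. It matched 1 place in GRCm38. Its highest value was in mouse B6C3F1_Vh_1033, which was also the highest B6C3F1 mouse, at 268851 normalized counts, in chr17:39843058-39846938, a member at an 18S ribosomal RNA related sequence. Whether chr10:11492027-11492268 or chr17:70963653-70963898 is repeated in sequence outside GRCm38 or resembles ribosomal RNA was not tested. Next in ratio among these members came chr19:22852010-22852170, in an intron of Trpm3, with 527, 699 and 971 against 0.712, 2.87 and 10.6, and its bases matched 18 places in the genome. Reads from such repeated sequence cannot be placed with certainty.

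The 2 strongest members, chr17:39843058-39846938 and chr17:39846974-39848882, were also the widest, at 3881 and 1909 bp, and overlapped the annotated 18S ribosomal RNA related sequence Rn18s-rs5. They had 185685 ± 42331 and 68761 ± 14856 normalized counts in B6C3F1 and 88202 ± 25963 and 37135 ± 11011 in C57BL/6. The next widest, chr10:12868024-12869634 near Utrn and chr8:94396244-94397807 near Herpud1, were 1611 and 1564 bp wide with ratios of 1.61 and 2.22. A further pair on chromosome 2, chr2:98665039-98665218 and chr2:98666247-98667329, lay 1197471 and 1199131 bp from the nearest gene start with ratios of 2.55 and 3.19. The former matched 8 places in GRCm38, and the latter lay in repeats over 81.4% of its bases. Also among the 6 strongest, chr16:57391342-57391694 matched 4 places. The placing of reads in such members is uncertain. The 6 strongest members all had ratios between 1.85 and 3.19.

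At the other end, 13 members had the lowest value of each library, worth 1 read, in all 9 C57BL/6 mice. No value was lower than this in any library, so a count of 0 cannot be told from 1 there. Ratios against these values are lower bounds, computed against 3 reads per library (2.47 normalized counts on average). No other autosomal DHS was at this value in every C57BL/6 mouse, and 3 were at it in all B6C3F1 mice.

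Of those 13 members, 10 followed each other without interruption, over 86.4 kb of chromosome 7 (chr7:26876775-26963208). Together they made up the longest run of consecutive members. This stretch lies in the cluster of Cyp2a genes, cytochromes P450 that hydroxylate drugs and steroids, and holds Cyp2a22. The DHS at the Cyp2a22 start, chr7:26939258-26939609, ranged from 398 to 476 normalized counts in B6C3F1 mice and was at 1 read in each C57BL/6 mouse, which makes it at least 177-fold higher in B6C3F1. The labels give no substrain of the C57BL/6 mice, the study's methods name C57BL/6J, and whether these animals carry the sequence of this stretch was not tested. The means of the 10 DHSs in B6C3F1 ranged from 75.7 to 442, at least 30.7-fold to at least 179-fold higher.

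The neighbouring DHSs were open in both strains. The nearest before the stretch had a ratio of 0.442 and the nearest after it 1.00, with C57BL/6 means of 121 and 76.0 normalized counts. Of the 10 sequences, 8 matched 2 to 3 places in GRCm38 at 90% identity or more over 80% of their length, 1 matched 169 and 1 matched only itself. Reads that fit several places cannot be assigned with certainty.

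**Figure D3:**
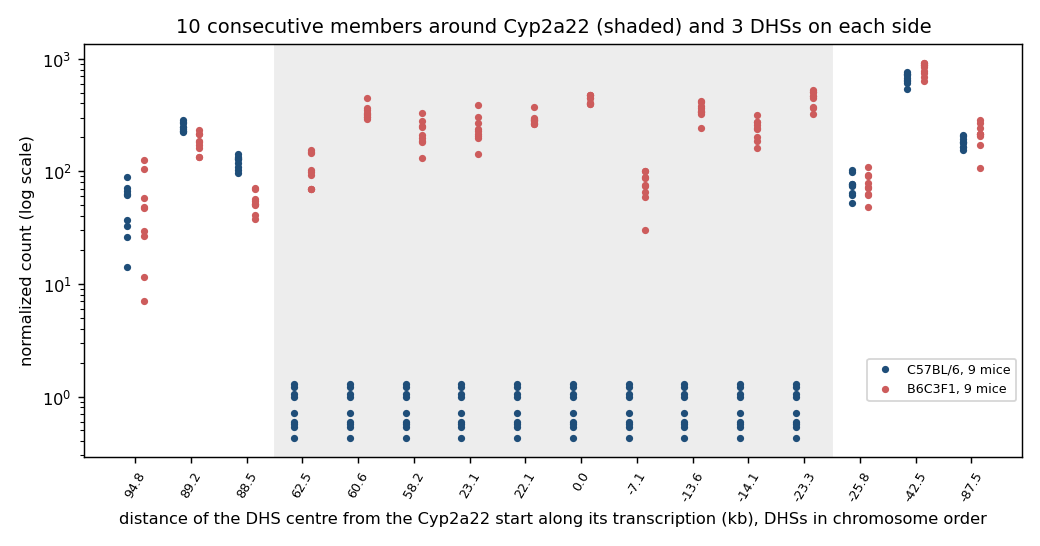
Normalized count (log scale) of each mouse in the 10 consecutive members around Cyp2a22 (shaded) and in 3 DHSs on each side, in chromosome order, with the distance from the Cyp2a22 start in kb on the x axis. In the shaded DHSs all C57BL/6 mice are at the lowest value of their library, between 0.425 and 1.30, and B6C3F1 mice lie at 30.1 or above, while in none of the 6 outer DHSs do all B6C3F1 mice lie above all C57BL/6 mice.

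Cyp2a22 RNA differed in the same direction. Cyp2a22 RNA was 4.27 to 10.5 CPM in the 4 vehicle-treated B6C3F1 mice and 0.274 to 0.531 in the 4 vehicle-treated C57BL/6 mice, and 4.75 to 12.7 against 0.429 to 0.637 under PB. No values overlapped between the strains. The log2 fold change (FC) on the log2(CPM + 0.1) scale was 3.71 ± 0.27 (SE, limma, adjusted p = 3.7e-09) in vehicle-treated and 3.64 ± 0.24 in PB-treated mice (limma, adjusted p = 5.1e-10). Cyp2a genes are close paralogs, and reads of one can be counted for another.

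The next longest runs had 7 members each. On chromosome 13, chr13:103558949-103644663 had ratios from 2.42 to 31.7, and its nearest member to a gene start was 63078 bp away from Gm30551. On chromosome 18, chr18:41922821-42009965 had ratios from 1.65 to 3.90 and holds the start of Prelid2. RNA of Prelid2 was 4.27 ± 0.37 CPM in vehicle-treated B6C3F1 and 0.593 ± 0.25 in C57BL/6 mice (n = 4 each, limma log2 FC 2.71 ± 0.22, adjusted p = 1.0e-08). Most members stood alone: 1623 had no neighbouring DHS that was a member, and 414 (20.3%) were in runs of 2 or more, against 23.4% in the mirror set.

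By 1-Mb windows, the densest held 15 members among 62 DHSs, in the Mup cluster of chromosome 4 (major urinary proteins, the pheromone carriers made by liver). Of these, chr4:60584272-60584418 was at 1 read in every C57BL/6 mouse and at least 28.2-fold higher in B6C3F1, and the others had ratios from 1.67 to 3.52. In the 53 DHSs between the first and the last, 16 did not overlap with B6C3F1 higher, and 5 were in the mirror set. Each of the 15 sequences matched between 9 and 37 places in the genome, so the split of reads among Mup copies is uncertain. Mup RNA went both ways: Mup8 and Mup9 rose and Mup1 and Mup11 fell in B6C3F1 in both treatments, with log2 FC in vehicle-treated mice of 3.19 ± 0.51, 2.32 ± 0.43, -2.25 ± 0.40 and -1.94 ± 0.37 (SE, limma, adjusted p between 5.5e-04 and 0.0019). Mup10, with a member at its start, chr4:60582114-60582511, was higher in both treatments, by 1.66 ± 0.27 with vehicle (limma, adjusted p = 0.00015) and 2.81 ± 0.24 with PB (limma, adjusted p = 2.0e-08).

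The second window, with 12 members among 62 DHSs on chromosome 17, has its members close together. The 11 between chr17:30559553 and chr17:30681957, across Btbd9, Glo1 and Dnah8, had ratios between 1.77 and 2.63, and over the whole span of 463 kb 25 of 30 DHSs had a ratio above 1. The DHS at the start of Glo1, which encodes the methylglyoxal-detoxifying glyoxalase 1, had 1581 ± 232 normalized counts in B6C3F1 and 780 ± 56.1 in C57BL/6. Glo1 RNA was 409 ± 12.6 and 278 ± 13.4 CPM in vehicle-treated mice, a log2 FC of 0.56 ± 0.08 that missed the threshold of 0.58 (limma, adjusted p = 6.0e-05), and in PB-treated mice it was 0.76 ± 0.07 and passed (limma, adjusted p = 1.9e-07). In vehicle-treated mice Dnah8 RNA was higher by 1.18 ± 0.18 (limma, adjusted p = 9.2e-05), and Btbd9 RNA, at 0.35 ± 0.08 (limma, adjusted p = 0.0054), stayed under the fold threshold. The third window, on chromosome 13, held 11 members among 31 DHSs and includes the run named above. RNA of Mast4, whose start lies in it, differed by -0.13 ± 0.11 (limma, adjusted p = 0.43).

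The members were spread over all autosomes. Their share of DHSs ranged from 1.69% on chromosome 10 to 2.90% on chromosome 17, with 2.84% on chromosome 4. Members were found in 1036 of 2333 windows of 1 Mb with a DHS. Of 1564 windows with at least 20 DHSs, 644 held no member and 273 held neither a member nor a mirror DHS. On chromosome X, which males of this cross receive from their mother alone, the same rule held for 11 of 1855 DHSs (0.593%) and the mirror rule for 29.

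The median width of the members was 300 bp, against 316 bp for all autosomal DHSs and 321 bp for the mirror set, and the 75th percentile was 418 bp against 477 and 430. Members made up 1.45% of the widest of 5 equal groups of DHSs and a larger share of each of the others, up to 2.49%. The mirror set also had its lowest share in the widest group, at 1.69%. Of the members 32 were at least 1000 bp wide (1.57%), and of all autosomal DHSs 2091. Members were more often intergenic (47.3% against 37.5%) and less often in introns (34.5% against 42.0%) or promoters (9.77% against 14.0%) than all autosomal DHSs. Exons held 8.44% of members against 6.46% of all. Within 1 kb of a transcription start on either side the shares were closer, at 14.0% against 15.7%, with 3.80% in the mirror set. The mirror set was at 47.0% intergenic, 43.5% intronic and 3.18% in promoters. The median GC content was 49.3% against 47.8%, while in the mirror set it was 45.7%. These shares are descriptions, without a test.

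GC content moved with the strain ratio over all DHSs. When DHSs were divided into 5 equal groups by GC content, the median log2 ratio of B6C3F1 over C57BL/6 was -0.09 in the lowest and 0.12 in the highest group. The share of members was 1.83% in the lowest, 1.62% in the next and 2.53% in the highest, and that of the mirror set 3.52% and 0.976% in the lowest and highest. The part of GC content in the strain difference was not tested.

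Members of low and of high ratio differed in these features. The 1096 members with a ratio under 2 had a median GC content of 50.6%, 13.5% of them lay in promoters and 2.83% lay in repeats over at least 50% of their bases. The 288 members with a ratio of at least 5 had 46.1%, 2.08% and 9.38%. The median C57BL/6 level was 100.1 normalized counts in the former and 11.1 in the latter, in part through the rule itself.

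Of the 10 motifs, the letters of CTCF differed most between members and all DHSs in percentage points. The pattern CNAGNNGGC, searched on both strands in the central 200 bases, was in 27.8% of members, 15.9% of all autosomal DHSs and 11.2% of the mirror set. It was in 33.8% of members with a ratio under 2 and in 9.72% of those with a ratio of at least 5. The share was higher in members than in all DHSs within each of the 5 GC groups, from 18.2% against 8.86% in the lowest to 33.8% against 25.4% in the highest. The intronic DHS of Alad printed above is an example with 3 matches, at 709 ± 54.9 normalized counts in B6C3F1 and 401 ± 52.6 in C57BL/6.

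The nuclear receptor element AGGTCA showed the opposite. It was in 15.3% of members, 22.2% of all and 31.9% of the mirror set, and in 28.1% of the members with a ratio of at least 5. The C/EBP pattern TTGCNNAA was in 10.5%, 14.5% and 21.9% of members, all and mirror, the FOX pattern TGTTTAC in 3.39%, 5.65% and 7.56%, and the HNF4 pattern CAAAGTCCA in 0.933%, 1.59% and 2.36%. The ETS pattern CCGGAAG was in 1.18%, 3.05% and 1.67%. In members and all DHSs, TGANTCA (AP-1) was in 6.48% and 7.62%, TTCNNNGAA (STAT or BCL6) in 5.40% and 7.43%, ATTGATT (ONECUT) in 3.58% and 4.65%, and GTTAATNAT (HNF1) in 1.91% and 1.53%. Matches of different patterns can share bases, and a match is no evidence of binding.

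**Figure D4:**
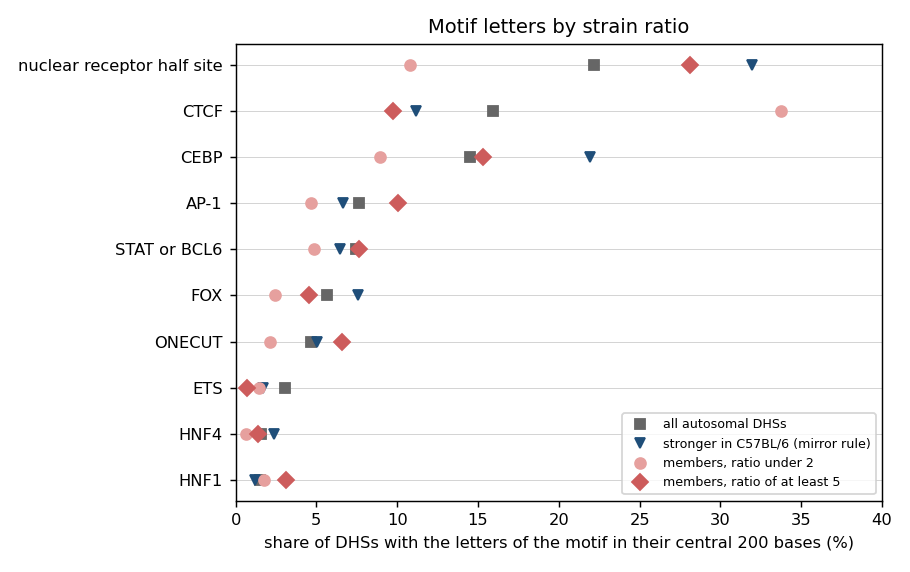
Share of DHSs (x axis, %) that hold the letters of each of 10 motifs (y axis) in their central 200 bases, for all autosomal DHSs (squares), the mirror set (triangles), members with a ratio under 2 (pale circles) and members with a ratio of at least 5 (diamonds). CTCF letters stand at 33.8% in members with a ratio under 2 and at 9.72% in those with a ratio of at least 5, and the nuclear receptor element at 10.8% and 28.1%.

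The response to PB was tested within each strain, at |log2 FC| ≥ 0.58 and an adjusted p ≤ 0.01. Under PB 0 of 2037 members were called in B6C3F1, against 166 higher (0.169%) and 21 lower (0.0214%) of 98170 DHSs, and 0 in C57BL/6, against 323 higher (0.329%) and 37 lower (0.0377%). At an unadjusted p below 0.05 there were 132 members (6.48%) in B6C3F1 and 110 (5.40%) in C57BL/6 (limma), against 9.16% and 7.76% of all DHSs, and the edgeR quasi-likelihood test also called 0 in each. The strain difference in PB response was called for 0 members and for 0 of 98170 DHSs (0%), with 103 members (5.06%) and 5.39% of all DHSs at an unadjusted p below 0.05. The rule keeps treated and untreated mice of one strain apart from those of the other, which favours DHSs with little spread within a strain.

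Over the members the median log2 FC under PB was -0.06 in B6C3F1 and 0.07 in C57BL/6, against -0.01 and -0.0019 for all DHSs. In C57BL/6, 64.9% of members lay above 0 and in B6C3F1 36.0%, against 49.5% and 47.4% of all DHSs. These shares count DHSs measured in the same few mice, so members are not replicates. The median member level of vehicle-treated and PB-treated mice overlapped within each strain, and a shift of the members as a set was not tested. The median of the strain difference was -0.14, against -0.01 for all DHSs. The ratio of the strains was 2.09 at the median in vehicle-treated and 1.87 in PB-treated mice. At the 13 members at 1 read, C57BL/6 values differ between mice by the library factor only and hold no PB response.

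The members nearest to a call, named after their values were seen, did not pass it. At chr4:129272293-129272828, between genes, the vehicle-treated B6C3F1 mice had 207, 183, 225 and 177 normalized counts and the PB-treated mice 319.8, 323, 416, 333 and 312. The groups did not overlap, and the log2 FC was 0.78 ± 0.14 (SE, limma, adjusted p = 0.0122). C57BL/6 mice showed 0.37 ± 0.18 there (limma, adjusted p = 0.66). At chr8:98955003-98955599 the log2 FC under PB was 0.70 ± 0.14 in B6C3F1 (limma, adjusted p = 0.019) and 0.85 ± 0.21 in C57BL/6 (limma, adjusted p = 0.068). At chr4:50346729-50347175 C57BL/6 was at 49.9 ± 14.2 with vehicle and 90.4 ± 10.0 with PB (n = 4 and 5 mice, log2 FC 0.88 ± 0.20, limma, adjusted p = 0.027). In an intron of Mast4, chr13:103285864-103286212 had a log2 FC of 1.13 ± 0.26 in C57BL/6 (limma, adjusted p = 0.039) and 0.08 ± 0.21 in B6C3F1 (limma, adjusted p = 0.95). In C57BL/6, chr10:80988068-80988522 had 0.55 ± 0.13 (limma, adjusted p = 0.059).

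RNA of genes near the members was compared between the strains, as a readout that the selection did not use. Of 556 tested genes with a transcription start within 10 kb of a member's centre, 45 were higher and 5 lower in vehicle-treated B6C3F1 mice (limma on log2(CPM + 0.1) over all 18 mice). Over the 13838 genes tested, 239 (1.73%) were higher and 264 (1.91%) lower. Under PB 61 were higher and 5 lower, against 331 (2.39%) and 396 (2.86%) of all. In both treatments 38 of the genes were called higher and 2 lower. Within 10 kb of a mirror DHS the counts were 4 higher and 50 lower of 509 in vehicle-treated mice. Most of the 556 genes were not called in either treatment.

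Corin, the protease that activates atrial natriuretic peptide, had the largest log2 FC among the higher genes in vehicle-treated mice at a pseudocount of 0.1. Its RNA was 17.8 to 24.5 CPM in vehicle-treated B6C3F1 mice and 0.114 to 0.535 in C57BL/6 mice, without overlap, and the log2 FC was 5.71 ± 0.25 (limma, adjusted p = 4.0e-13). The DHS at its start, chr5:72504144-72504377, had 79.7 ± 17.4 normalized counts against 9.95 ± 6.16. Cyp46a1, the cholesterol 24-hydroxylase best known from brain, had 62.7 to 86.0 against 1.17 to 1.74 CPM (log2 FC 5.53 ± 0.22, limma, adjusted p = 1.9e-11). Besides the intronic member printed above, the nearer chr12:108335648-108335809 had 186 ± 39.6 against 33.9 ± 9.27 normalized counts. Both genes kept this order under PB, with log2 FC of 5.47 and 4.76.

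Fgf21, a fasting hormone of the liver, had 4.47 to 17.1 CPM in vehicle-treated B6C3F1 and 0.548 to 0.963 in C57BL/6 mice (log2 FC 3.62 ± 0.43, limma, adjusted p = 1.6e-05). The DHS at its start, chr7:45615323-45615652, had 445 ± 94.7 against 153 ± 26.5 normalized counts. Tcf24, which encodes a bHLH transcription factor, differed by 4.27 ± 0.39, Hist1h2al, a histone H2A gene, by 4.66 ± 0.27 and Mir6236 by 3.22 ± 0.17 on the log2 scale (SE, limma, adjusted p at most 9.4e-07). Hist1h2al was listed at 0 CPM in 3 of the 4 vehicle-treated C57BL/6 mice and Nuggc in all 4, so the size of their log2 FC depends on the pseudocount and ran from 1.86 to 7.58 and from 0.83 to 7.52 over the alternatives, against 4.03 to 5.97 for Corin. Histone genes and Mir6236 have close copies elsewhere, and their reads may be shared. Tmc5, Nuggc and Gm17830 stood under 3 CPM in vehicle-treated mice of both strains and differed by 2.94, 2.92 and 2.88 on the log2 scale (limma, adjusted p at most 0.00011). In PB-treated mice Tmc5 reached 4.08 to 7.75 CPM in B6C3F1 and stayed at 0 to 0.0415 in C57BL/6.

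Higher genes of known liver function, named after their values were seen, include Ces1b, a carboxylesterase, at 216 ± 23.6 against 48.5 ± 6.66 CPM in vehicle-treated mice, Alad, the second enzyme of heme synthesis, at 284 ± 38.6 against 154 ± 7.21, and Abca3, a lipid transporter, at 241 ± 19.8 against 86.6 ± 6.29. Each passed the test in both treatments. Lpin1, a phosphatidate phosphatase, rose in vehicle-treated mice (158 ± 41.3 against 63.1 ± 10.4 CPM, limma, adjusted p = 0.0013) and missed the call under PB.

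The 5 lower genes were Slc7a15, C130046K22Rik, Dixdc1, AI661453 and Rpl29, with log2 FC from -1.12 to -0.60 in vehicle-treated mice. Of these, C130046K22Rik and Rpl29, a ribosomal protein gene, were also lower in PB-treated mice. The DHS at the start of AI661453, chr17:47436468-47436643, was just inside the ratio threshold, at 173 ± 23.2 and 108.0 ± 17.2 normalized counts.

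**Figure D5:**
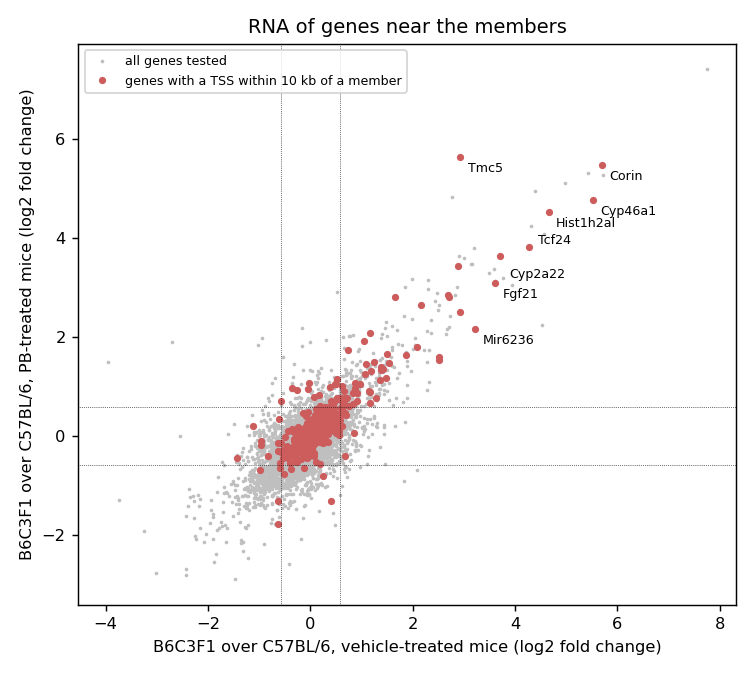
Log2 fold change of RNA between B6C3F1 and C57BL/6 in vehicle-treated mice (x axis) and PB-treated mice (y axis) for all genes tested (grey) and for genes with a start within 10 kb of a member (red), with dotted lines at the threshold of 0.58. Red points outside the dotted square lie mostly in the upper right, with Corin farthest right, at 5.71 and 5.47, and Tmc5 highest, at 2.94 and 5.63.

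Of the 13862 genes in the RNA-seq table, 557 had a start within 10 kb of a member. Of the cytochrome P450 list, 4 of 71 genes lay within 10 kb of a member: Cyp2a22, Cyp46a1, Cyp2u1 and Cyp4f13, of which the first 2 were higher in B6C3F1 in both treatments and the other 2 were not called in either. The whole list had 4 higher and 5 lower in vehicle-treated and 6 and 5 in PB-treated mice. Of 15 Mup genes, Mup10 and Mup2 had a member near, of which Mup10 was called higher, and the list had 3 higher and 7 lower with vehicle and 4 and 2 with PB. Of 15 liver transcription factors, Foxa1, Foxa2, Rxra and Stat5b had a member near and none of these was called, while 1 of the 15, Foxa3, was higher in vehicle-treated mice. Of 15 circadian genes Clock had a member near and was not called, and of 20 serpin A genes Serpina12 had one and was higher in PB-treated mice (log2 FC 1.01 ± 0.15, limma, adjusted p = 0.00015).

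No member was found within 10 kb of any gene of the next 6 lists. No gene position was listed for the histocompatibility gene H2-Ea-ps, so whether a member lies near it was not tested. The 22 histocompatibility genes had 6 higher and 1 lower in vehicle-treated mice and 5 and 3 in PB-treated mice, and the 15 interferon-induced GTPases had 1 and 1 and then 1 and 5. Glutathione transferases (20 genes) and 3beta-hydroxysteroid dehydrogenases (4 genes) had 0 calls in either. UDP-glucuronosyltransferases (19 genes) and sulfotransferases (9 genes) had 0 calls in vehicle-treated mice, and 1 lower, and 1 higher and 1 lower, in PB-treated mice. Of the lists named above, the serpin A genes had 0 calls and then 1 higher and 1 lower, and the circadian genes had 1 higher in each, Per1 in vehicle-treated mice.

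The tissue was liver by its RNA. The 7 hepatocyte markers summed to a median of 90025 CPM in vehicle-treated B6C3F1 and 85269 in C57BL/6 mice, with Alb as the most abundant, and 0 of 7 were called in vehicle-treated and 1 higher in PB-treated mice. The 6 sinusoidal endothelial markers summed to 352 and 362 CPM, the 6 Kupffer cell markers to 178 and 208, the 6 stellate cell markers to 417 and 418, and the 5 cholangiocyte markers to 36.4 and 38.9, with 0 calls in each of these 4 lists in either treatment. The neutrophil and erythroid lists had 1 gene each with 0 calls, S100a8 at a median of 0.107 and 0.438 CPM and Alas2 at 217 and 172. Of the markers in these lists only Spp1 lay within 10 kb of a member. The result of 1 further marker list is not reported, so these lists do not cover all cell types. In bulk tissue fewer cells of a type and less signal per cell cannot be told apart, and the part of cell composition in the strain ratios was not tested.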

How the data were processed

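Chromatin accessibility (DNase-seq) and RNA (RNA-seq) were measured in liver of 18 male mice. The authors aligned DNase-seq reads to mm10 with Bowtie2 2.1.0, kept reads with a mapping quality above 12, called peaks with MACS2 and counted reads with DiffBind 1.16.3 in sites found in at least 3 samples. The deposited DNase-seq signal is a normalized count, in which each mouse's reads were multiplied by 1 factor (100% of values whole within 0.001). The deposited RNA-seq signal is CPM, aligned with STAR 2.4.0f1 and scaled by TMM with edgeR 3.12.1 by the authors. mm10 is a C57BL/6J sequence, and allelic differences of B6C3F1 reads were not corrected here. The authors also mapped the B6C3F1 DNase-seq reads to a C3H/HeJ genome imputed from known variants. They report no differences in read pairs shared by the alignments and few pairs unique to either, and they kept mm10.

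Members and lists were chosen with earlier results of these data known. Tests used limma 3.58.1 (R 4.3.3, trend, robust) on log2(normalized count + 1) and on log2(CPM + 0.1) for genes that reached a CPM of 0.4 in 3 or more mice of a group, with Benjamini-Hochberg adjustment. Calls needed an FDR of at most 0.01 and an absolute log2 FC of 0.58 or more. The fits were tested on simulated data. edgeR 4.0.16 was an alternative on recovered reads. Labels give 1 sample per animal, so p-values measure the spread between animals. Gene starts came from RefSeq (13821 of 13862 genes matched). A promoter is the 1000 bp upstream of a start. The result of 1 marker list is not reported here. Genomic copies of named members were counted with blastn 2.17.0 (90% identity over 80% of the DHS, chromosomes only).

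Named were the 12 members of highest ratio with a C57BL/6 mean of at least 10, the 6 strongest, the 4 widest, those next to the threshold, the 3 longest runs, the 3 densest windows, and the 10 higher and up to 6 lower nearby genes with the largest log2 FC. RNA-seq reads counted in genes, in units of 1e6, were 23.8 to 30.3 per mouse.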

Additional observations from a re-analysis of the deposited data

Results flagged for a closer look

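Of 175 groups of 4 or 5 values behind the named DHSs and genes, 9 held a value far from the others, and chance gives about 1 in 20 groups. In vehicle-treated B6C3F1 mice, mouse B6C3F1_Vh_1033, which had the fewest reads, had 7274 normalized counts at chr2:98665039-98665218 (others 3116 to 3781) and 25548 at chr2:98666247-98667329 (others 10668 to 12896). In PB-treated B6C3F1 mice, mouse B6C3F1_PB_2035 had 629 at chr7:99311381-99312004 (others 273 to 310) and mouse B6C3F1_PB_2032 had 369 at chr7:26917074-26917464 (others 264 to 292). In vehicle-treated C57BL/6 mice, mouse C57BL6_Vh_1025 had 1212 at chr10:12868024-12869634 (others 1048 to 1075), mouse C57BL6_Vh_1021 had 7.03 at chr5:13844245-13844727 (others 13.5 to 13.6), and Hist1h2al RNA was 0.0402 CPM in mouse C57BL6_Vh_1023 and 0 in the others. In PB-treated C57BL/6 mice, mouse C57BL6_PB_2025 had 27.2 at chr17:70963653-70963898 (others 9.76 to 14.7), and Rpl29 RNA was 21.2 CPM in mouse C57BL6_PB_2021 (others 24.6 to 25.8).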

How the results depend on the processing

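The number of DHSs that met the rule was 941 at a ratio of at least 2 and 7202 when vehicle-treated mice were taken alone, of which 1948 were among the 2037, and 1961 to 2759 when each mouse was left out, the highest without PB-treated C57BL/6 mouse C57BL6_PB_2024. It was 2459 at a ratio of at least 1.5, 2003 after median centring, 2307 after quantile normalization, 2612 in PB-treated mice alone and 2037 with a B6C3F1 mean of at least 10. Non-overlap is easier to meet with fewer mice per strain, and the vehicle-treated groups were the smallest. The counts of 7202 and 2612 can therefore not be compared in size with 2037 or with each other.

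Members called for PB in B6C3F1 were 4 at an FDR of 0.05, and 1 each after median centring, quantile normalization and with all 4 groups in the fit. In C57BL/6 they were 2 at an FDR of 0.05 and 1 with all 4 groups. Leaving out each mouse gave 0 to 3 in B6C3F1 (3 without mouse B6C3F1_PB_2035, 2 without mouse B6C3F1_Vh_1033), 0 to 1 in C57BL/6 (1 without mouse C57BL6_Vh_1025) and 0 to 0 for the strain difference. The other alternatives gave 0.

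Genes near members higher in B6C3F1 were 25 within 1 kb and 80 within 50 kb with vehicle, and 34 and 110 with PB, where fewer or more genes enter. Lower genes were 1 and 34 with vehicle and 0 and 44 with PB at these distances, and 2 and 3 with a pseudocount of 1. Leaving out each mouse gave 43 to 47 higher and 2 to 5 lower with vehicle (2 without mouse C57BL6_Vh_1023 or mouse B6C3F1_Vh_1035, 3 without mouse C57BL6_Vh_1021, mouse B6C3F1_Vh_1032 or mouse B6C3F1_Vh_1033), and 54 to 62 higher and 4 to 8 lower with PB (8 without mouse B6C3F1_PB_2035). Taking the last digit of the animal number as a replicate block, which pairs different animals, gave 43 higher and 4 lower with vehicle, 57 and 5 with PB, and 0 members for PB in either strain. Deviations of mice with the same digit correlated between -0.20 and 0.24, so they share only a digit. Among all 98170 DHSs under PB, 166 higher and 21 lower in B6C3F1 became 57 and 1 with the block, 462 and 168 with all 4 groups and 372 and 124 at an FDR of 0.05, and 323 and 37 in C57BL/6 became 149 and 7 with all 4 groups and 504 and 89 at an FDR of 0.05. Leaving out each mouse gave 55 (without B6C3F1_PB_2033) to 223 higher and 4 to 103 (without B6C3F1_PB_2035) lower in B6C3F1, and 218 to 327 higher and 13 to 42 lower in C57BL/6.

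The 10 higher genes kept direction and call under every alternative that tested them. Among the 5 lower, Slc7a15 lost its call in vehicle-treated mice under 8 of 24 alternatives, Dixdc1 under 5 of 24, AI661453 under 4 of 25, Rpl29 under 3 of 24, and C130046K22Rik under 0, though under 1 of 24 with PB. The cause was not tested. Depth limits the 129 members with a C57BL/6 mean under 10 normalized counts, whose ratios rest on few reads.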

Other observations

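RNA of Rn45s, the precursor of ribosomal RNA, was 4749 to 6184 CPM in vehicle-treated B6C3F1 and 1938 to 2514 in C57BL/6 mice, and 3597 to 4661 against 1865 to 2797 with PB, and the strains did not overlap in either treatment. RNA of the histocompatibility pseudogene H2-Ea-ps was listed at 0 CPM in all 9 C57BL/6 mice and at 2.99 to 8.82 in the 9 B6C3F1 mice. Both genes were chosen after their values were seen.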
